A study of Mus musculus with 4 samples.

Results

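Cilia and flagella associated proteins carry gene symbols that begin with Cfap and a number, and they include many named parts of the motile axoneme. Every row of the count table with such a symbol was taken, which gave 42 genes of 18471. They were followed in retinas from mouse embryos at embryonic day 19, in 2 wild-type embryos and 2 Foxn3-/- embryos of the line C57BL/6NJ-Foxn3em1(IMPC)Bay/Mmnc. The mutant embryos lack exon 3 of Foxn3, which encodes a forkhead transcription factor, and the line carries a single edited allele. No treatment and no transgene is given in the labels, and each library was made from retinal RNA of an individual embryo. The study asks about a transcriptional network for primary cilia in the developing retina. The strain of the wild-type embryos was not given in the sources used here.

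A motile cilium has a ring of doublet microtubules around a central pair. Dynein arms drive its bending, radial spokes pass signals from the central pair to the arms, and proteins inside the doublet walls stabilise the tubules. Cells with such cilia line the airways, the oviduct and the brain ventricles. Retinal progenitors and neurons carry a single primary cilium, which lacks the central pair and the dynein arms, and the photoreceptor outer segment grows from a modified one. The forkhead factor Foxj1 and the RFX factors are the known activators of motile cilium genes.

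Total counts ranged from 22543531 to 29360129 per library. Levels are given as CPM, the count scaled to library size with TMM factors, and, between genes, as the authors' FPKM, which divides by gene length. Foxn3 itself had 2421 and 2712 counts in the wild-type-labelled pair and 4181 and 3219 in the Foxn3KO-labelled pair. That is 97.6 and 99.8 CPM against 144 and 144 CPM, and it was called higher (log2 fold change 0.54, edgeR adjusted p = 7.83e-08). Counts over the whole gene do not resolve exon 3, so the groups are named by their labels. All 15 retinal markers examined were detected, with a summed level of 3680 to 3860 CPM per library. Of these, at an edgeR adjusted p under 0.05, Six3 and Six6 were called higher (0.18 and 0.14 on the log2 scale), Isl1 and Onecut1 lower (-0.23 and -0.51), and 11 did not pass. Wild-type replicate 1 held 83073 Xist counts, while the other 3 libraries held at most 19, and that library had 0 counts of Ddx3y, Eif2s3y and Kdm5d. Values without that library are therefore given where they move a result.

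All 42 genes passed the low-count filter. Of these, 38 rose in the Foxn3KO-labelled libraries and none fell (edgeR quasi-likelihood test with Benjamini-Hochberg adjustment over 17300 genes, adjusted p under 0.05). Of all tested genes, 12.3% were called higher and 9.66% lower. The median log2 fold change over the 42 genes was 2.31, and over all tested genes it was 0.00. A called rise of at least 2-fold was found for 30 members, against 2.86% of all tested genes, and of at least 16-fold for 14 members, against 0.324%. Both Foxn3KO-labelled libraries lay above both wild-type-labelled libraries for 41 members, a pattern found in 29.9% of all tested genes, with the reverse in 30.5%. The exception was Cfap97. Summed over the members, the level was 541 and 521 CPM in the wild-type-labelled pair and 1610 and 1600 CPM in the Foxn3KO-labelled pair. In a bulk sample, more cells with a transcript and more transcript per cell cannot be told apart. Nothing in the labels pairs the embryos. The p-values rest on 2 embryos per group and on a variance that edgeR moderates across all tested genes.

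**Figure D1:**
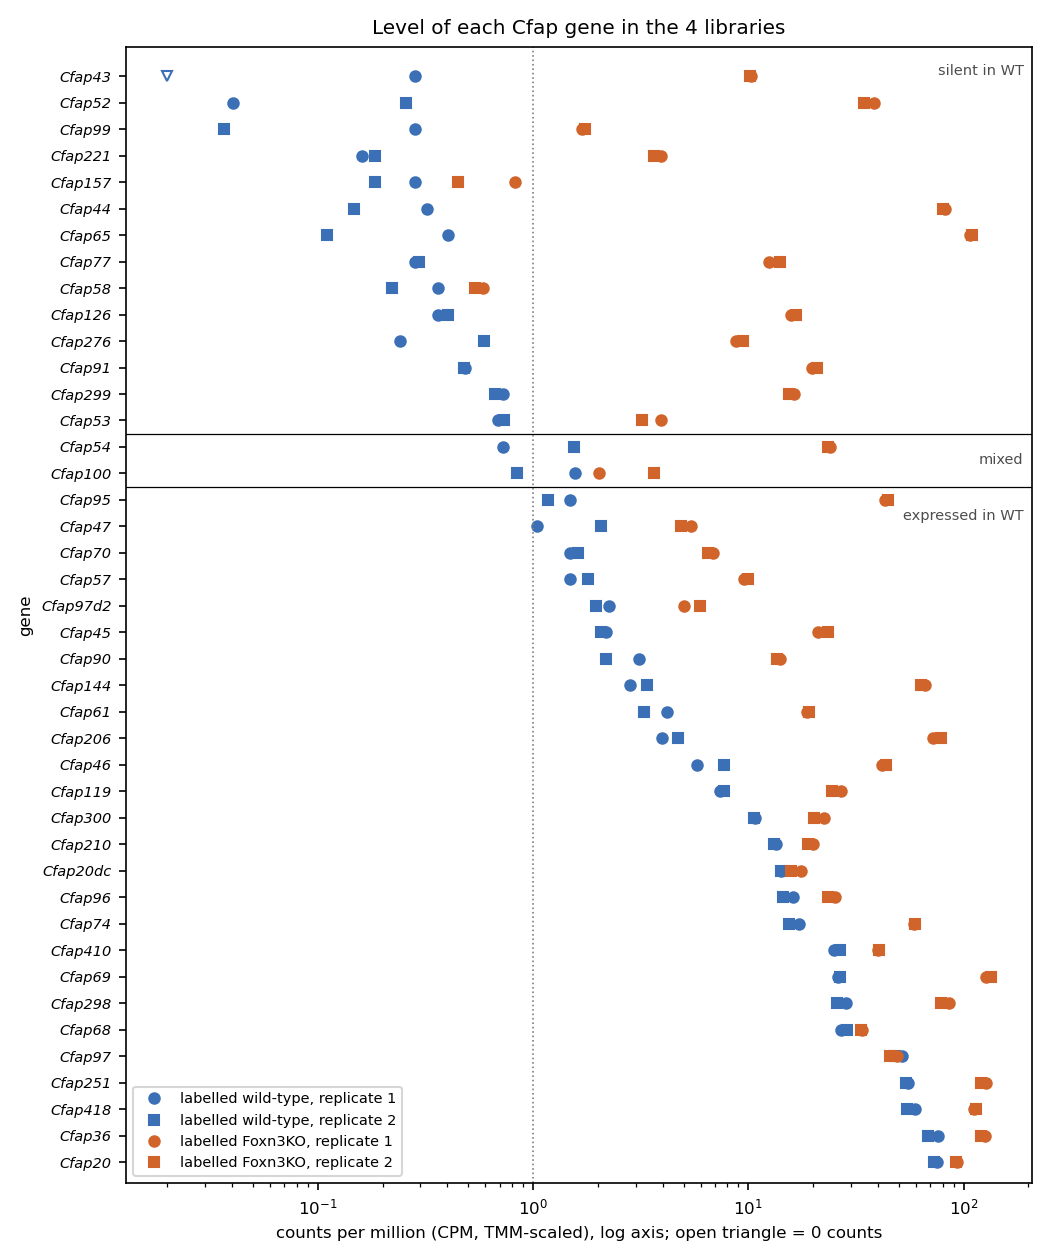
Level of each of the 42 genes in CPM on a log axis, 1 point per library (blue for wild-type, orange for Foxn3KO; circles for replicate 1, squares for replicate 2), ordered by class and by mean wild-type level. The dotted line marks 1 CPM; the orange points lie to the right of the blue ones for every gene except Cfap97.

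The members were divided by their level in the wild-type-labelled pair. Silent here means under 1 CPM in both, expressed means at least 1 CPM in both, and 14 genes were silent, 26 expressed and 2 on either side of the limit. Just below the limit were Cfap53, with 0.686 and 0.736 CPM, and Cfap299, with 0.726 and 0.663 CPM. Just above it were Cfap95, with 1.49 and 1.18 CPM, and Cfap47, with 1.05 and 2.06 CPM. Cfap54 (0.726 and 1.55 CPM) and Cfap100 (1.57 and 0.847 CPM) straddled it. The division uses the wild-type values that also enter the fold change, so fold changes of the classes are described without a test.

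Of the 14 silent members, 12 rose. The low-count filter kept 2158 of 3328 genes silent by the same limit, and a silent gene can pass it through its Foxn3KO counts alone. The kept genes are therefore tilted towards rises, and a fall from such low levels is hard to detect. Of these 2158 genes, 8.39% were called higher and 0.417% lower. The median log2 fold change of the 14 silent members was 4.95, against 0.17 for all tested genes of that class. Summed over these 14 genes, the level was 4.92 and 4.31 CPM in the wild-type-labelled pair and 321 CPM in each of those labelled Foxn3KO. Cfap58 and Cfap157 were the silent genes that did not pass.

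Of the 26 expressed members, 24 rose, where 13.1% of all 14513 expressed genes were called higher and 11.4% lower. Their median log2 fold change was 1.65, against -0.01 for all tested genes of that class. Their summed level was 534 and 514 CPM in the wild-type-labelled pair and 1270 and 1250 CPM in the Foxn3KO-labelled pair. Cfap97 and Cfap20dc were the expressed genes that did not pass. Both Cfap54 and Cfap100 rose, where 6.52% of tested genes straddling the limit were called higher and 1.75% lower.

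The classes were also set by 1 wild-type library and the fold change taken against the other, so that no library served both. With wild-type replicate 1 for the class, the median log2 fold change was 5.31 for 15 silent and 1.67 for 27 expressed members. With wild-type replicate 2 for the class it was 5.16 and 1.78. The fold of Cfap43 in the first of these rests on a library with 0 counts, and the median of the silent members was 5.31 also with that gene at its lower bound. All tested genes divided in the same way had medians of 0.13 and 0.08 when silent.

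The Foxn3KO-labelled libraries did not set the class, but they helped to decide which silent genes were analysed. The smallest sum of counts over the 4 libraries was 16. A gene with fewer wild-type counts was therefore present only through its Foxn3KO counts, such as Cfap44 and Cfap65. Levels of silent members in the Foxn3KO-labelled libraries are thus tilted upwards, and they are described without a test. In the Foxn3KO-labelled libraries the levels of the classes overlapped. On the FPKM scale, silent members had a median of 4.75 in those libraries, with a range of 0.160 to 15.6. Expressed members had a median of 7.56 FPKM, with a range of 0.513 to 114. In the wild-type-labelled libraries the medians were 0.0945 and 3.61 FPKM. Cfap52, Cfap65 and Cfap44, ranked 38, 40 and 41 of 42 by FPKM in wild-type, ranked 9, 10 and 14 in Foxn3KO. Cfap36, which ranked first in wild-type, ranked 5 in Foxn3KO. The 3 highest members per length in the Foxn3KO-labelled libraries were Cfap144, Cfap298 and Cfap95, with means of 114 ± 3.72, 51.3 ± 3.03 and 49.8 ± 1.20 FPKM (SD, n = 2).

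**Figure D2:**
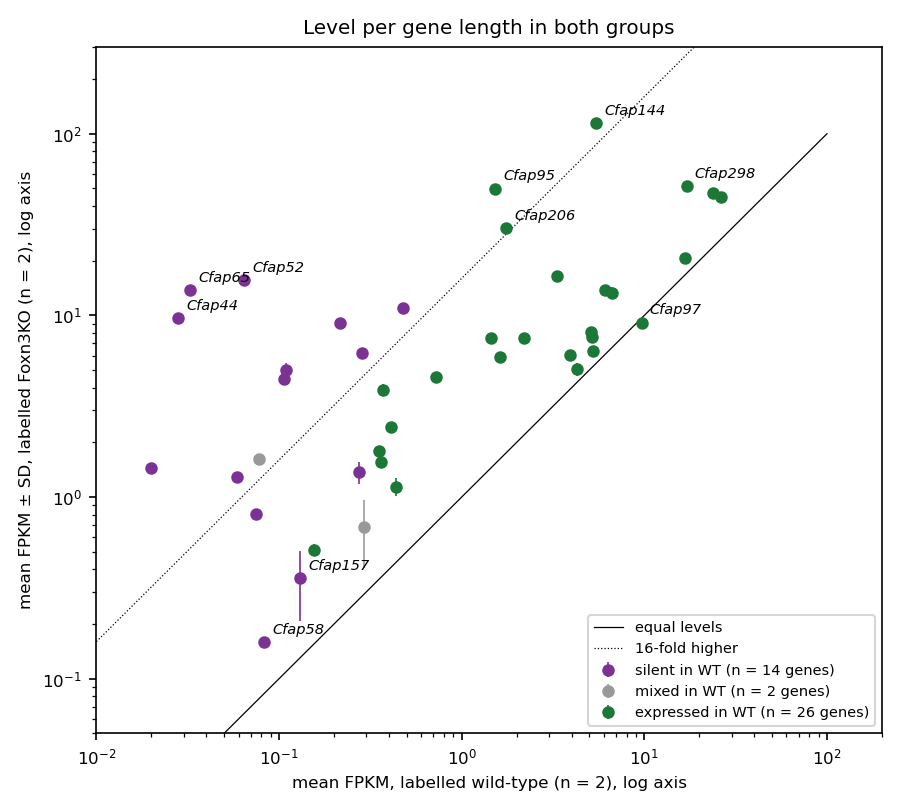
Mean FPKM of each of the 42 genes in the wild-type-labelled pair (horizontal) and Foxn3KO (vertical, bars are the SD, n = 2), both on log axes, coloured by wild-type class. The silent members Cfap44, Cfap52 and Cfap65, at 0.0278, 0.0640 and 0.0327 FPKM in wild-type, lie at 9.64, 15.6 and 13.8 FPKM in Foxn3KO, while Cfap58 and Cfap157 (0.160 and 0.356) lie below all expressed members.

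Among the 8 members of the central apparatus, the structure around the central pair that regulates beating, all 8 rose, with log2 fold changes from 1.71 to 8.73. Cfap65 (ENSMUSG00000047021), a central apparatus protein needed for the sperm flagellum, had 10 and 3 counts in the wild-type-labelled pair and 3107 and 2459 in the Foxn3KO-labelled pair. That is 0.257 ± 0.207 CPM against 108 ± 2.19 CPM (SD, n = 2), and the log2 fold change was 8.73 (SE 0.154, edgeR adjusted p = 2.79e-17). The groups are far apart, and the size of the fold rests on 13 wild-type reads in all. Without wild-type replicate 1 the fitted log2 fold change was 9.88, and without replicate 2 it was 8.05. Against the 3 counts of wild-type replicate 2 alone the fold was 979, with a 95% counting interval (Clopper-Pearson) of 335 to 4750.

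At the other end of the same structure stood Cfap47, the member on the X chromosome. It had 26 and 56 counts in the wild-type-labelled pair and 157 and 109 in the Foxn3KO-labelled pair, a log2 fold change of 1.71 (SE 0.244, edgeR adjusted p = 5.10e-05). The wild-type libraries differ from each other, and the value without replicate 1 was 1.32 and without replicate 2 was 2.29. Cfap46, Cfap54, Cfap74 and Cfap221 build 1 projection of the central pair, and their log2 fold changes were 2.66, 4.36, 1.85 and 4.42. Their wild-type levels differed, with means of 0.727, 0.0774, 1.63 and 0.0590 FPKM, and in the Foxn3KO-labelled libraries they had 4.60, 1.62, 5.90 and 1.30 FPKM. The value of Cfap54 was 3.94 without wild-type replicate 1 and 5.02 without replicate 2. Cfap69 and Cfap70, also central apparatus proteins, rose by 2.30 and 2.10 on the log2 scale.

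The inner dynein arms are held by a tether made of Cfap43 and Cfap44 and by the MIA complex, to which Cfap100 belongs. All 4 members of this group rose. Cfap44 (ENSMUSG00000071550) had 8 and 4 counts in the wild-type-labelled pair and 2389 and 1801 in the Foxn3KO-labelled pair. Its level went from 0.235 ± 0.124 to 81.2 ± 1.15 CPM (SD, n = 2), and the log2 fold change was 8.43 (SE 0.133, edgeR adjusted p = 1.08e-17). Its partner Cfap43 had 7 and 0 counts against 301 and 229, with a fitted log2 fold change of 6.20 (edgeR adjusted p = 2.85e-10).

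Both tether genes were near 0 in wild-type, but in the Foxn3KO-labelled libraries Cfap44 had 9.64 ± 0.135 FPKM and Cfap43 1.45 ± 0.0110 FPKM (SD, n = 2). Without wild-type replicate 1 the log2 fold change of Cfap44 was 9.06, and without replicate 2 it was 7.96. For Cfap43 the log2 fold change was 5.16 without wild-type replicate 2, 5.61 with a prior count of 2 and 7.11 with limma-voom. Against wild-type replicate 2, where Cfap43 had 0 counts, the level was at least 93.2-fold higher, taking a limit of 3 counts in that library. Cfap57, an adaptor of inner arms, rose by 2.56 on the log2 scale.

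Cfap100 moved least of this group. It had 39 and 23 counts in the wild-type-labelled pair and 59 and 82 in the Foxn3KO-labelled pair, which is 1.57 and 0.847 CPM against 2.03 and 3.66 CPM. The log2 fold change was 1.21 (SE 0.331, edgeR adjusted p = 0.0137). Without wild-type replicate 1 it was 1.69, and without wild-type replicate 2 it was 0.8. The groups do not overlap, but the call was lost without Foxn3KO replicate 2 (log2 fold change 0.76, edgeR adjusted p = 0.162).

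The calmodulin- and spoke-associated complex and its neighbour Cfap206 sit at the base of the radial spokes. All 4 members rose. Cfap91 had 12 and 13 counts against 576 and 466, a log2 fold change of 5.38 (SE 0.169, edgeR adjusted p = 6.15e-14). Cfap251, another subunit of that complex, had 1368 and 1474 counts against 3689 and 2705, a log2 fold change of 1.18 (SE 0.0509, edgeR adjusted p = 5.63e-12). These subunits thus started from 0.106 and 6.08 FPKM in wild-type and reached 4.47 and 13.8 FPKM. Cfap61 rose by 2.35 and Cfap206 by 4.11 on the log2 scale, the latter to 30.2 ± 1.98 FPKM (SD, n = 2).

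Proteins inside the doublet walls made up the largest group, and all 12 members rose, with log2 fold changes from 0.27 to 7.84. Cfap52 (ENSMUSG00000020904), a WD-repeat protein of the doublet lumen, had 1 and 7 counts in the wild-type-labelled pair and 1116 and 771 in the Foxn3KO-labelled pair. Its level went from 0.149 ± 0.154 to 36.4 ± 2.76 CPM (SD, n = 2), and the log2 fold change was 7.84 (SE 0.211, edgeR adjusted p = 7.99e-15). The value was 7.12 without wild-type replicate 1 and 9.66 without replicate 2. Against the single count of wild-type replicate 1 the fold was 908, with a 95% counting interval of 163 to 35900. The groups do not overlap.

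Cfap144 had 70 and 92 counts against 1931 and 1418, a log2 fold change of 4.38 (SE 0.0906, edgeR adjusted p = 2.44e-16). Per length it was the most abundant member in the Foxn3KO-labelled libraries and ranked 8 in wild-type. Cfap95 had 37 and 32 counts against 1252 and 996, a log2 fold change of 5.03 (SE 0.114, edgeR adjusted p = 6.92e-16). Cfap77, Cfap126 and Cfap276 rose by 5.49, 5.38 and 4.40 on the log2 scale from 22 counts or fewer over both wild-type libraries. Cfap276 had 6 and 16 of these, and its value was 3.93 without wild-type replicate 1 and 5.19 without replicate 2. Cfap45, which lies next to Cfap52 in the doublet, rose by 3.39, Cfap90 by 2.40 and Cfap53, which is also needed for left-right patterning, by 2.33.

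The same group held 3 genes with rises under 2-fold, each of them expressed in wild-type. Cfap20, a protein of the inner junction of the doublet that is also found at centrioles and has a role in transcription, had 75.1 and 73.2 CPM against 92.8 and 92.2 CPM. Its log2 fold change was 0.32 (SE 0.0498, edgeR adjusted p = 0.000132). Cfap210 rose by 0.55. Cfap68 had 27.0 and 28.8 CPM against 33.8 and 33.4 CPM, a log2 fold change of 0.27 (SE 0.0695, edgeR adjusted p = 0.00942). The call for Cfap68 was lost in DESeq2 (adjusted p = 0.0536), where 36 members and 10.3% of all genes with an adjusted p were called higher. It was also lost without Foxn3KO replicate 1 (edgeR adjusted p = 0.0770) and without Foxn3KO replicate 2 (edgeR adjusted p = 0.0507). The call for Cfap20 held in each setting tried.

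**Figure D3:**
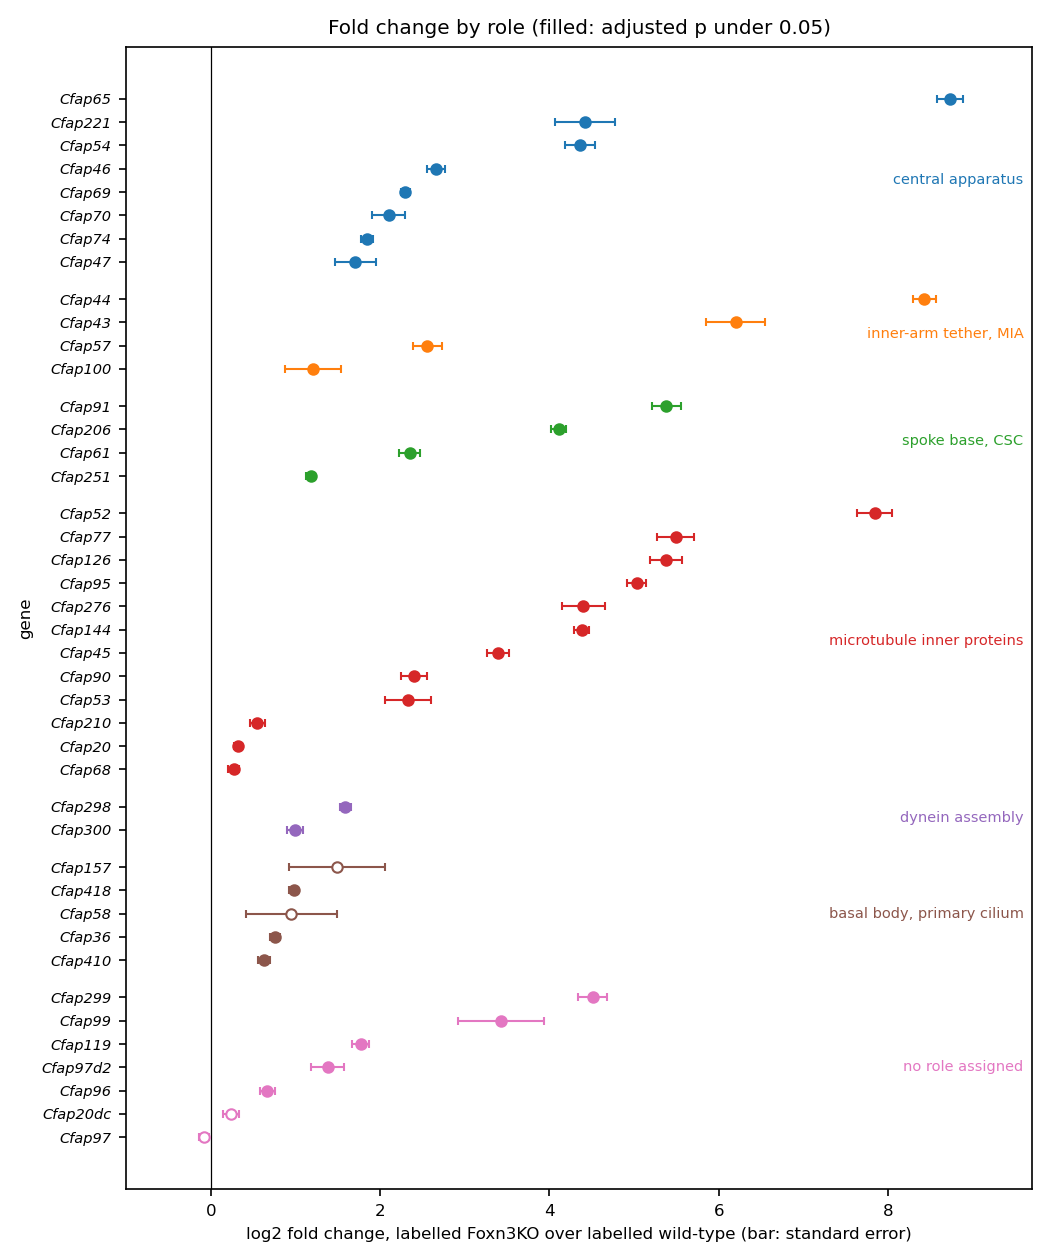
Log2 fold change of each of the 42 genes, Foxn3KO over wild-type, with the standard error as a bar, grouped by role (MIA, modifier of inner arms; CSC, calmodulin- and spoke-associated complex). Filled points passed an adjusted p of 0.05; the 4 open points are Cfap157, Cfap58, Cfap20dc and Cfap97, and each axonemal group spans members with small and large values.

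Both dynein assembly factors, which help to build or carry dynein arms, were expressed in wild-type and rose. Cfap298 had 708 and 699 counts against 2480 and 1754, a log2 fold change of 1.59 (SE 0.0662, edgeR adjusted p = 3.24e-12). Cfap300 had 266 and 288 counts against 651 and 453, a log2 fold change of 1.00 (SE 0.0949, edgeR adjusted p = 3.43e-07).

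Of 5 members known from basal bodies, primary cilia or photoreceptors, 3 rose, and the log2 fold changes ran from 0.63 to 1.49. Cfap418, whose loss causes retinal degeneration in people and mice, had 59.7 and 54.7 CPM against 112 and 114 CPM, a log2 fold change of 0.98 (SE 0.0542, edgeR adjusted p = 1.93e-10). Cfap36, a binding partner of the small GTPase Arl3, had 76.3 and 68.6 CPM against 126 and 120 CPM with a log2 fold change of 0.76 (edgeR adjusted p = 1.03e-08). Cfap410, linked to retinal dystrophy with skeletal dysplasia, had 621 and 727 counts against 1161 and 906. Its log2 fold change was 0.63 (SE 0.0682, edgeR adjusted p = 1.83e-06). These 3 genes were already well expressed in wild-type and each rose by under 2-fold.

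The other members of this group, Cfap157 and Cfap58, stayed below 1 CPM in all 4 libraries. Cfap157, a basal body protein of the sperm flagellum, had 7 and 5 counts against 24 and 10, a log2 fold change of 1.49 (SE 0.568, edgeR adjusted p = 0.0717). It passed the threshold without Foxn3KO replicate 2, where the log2 fold change was 1.82 (edgeR adjusted p = 0.0464). Cfap58, a sperm flagellum protein, had 9 and 6 counts against 17 and 12, a log2 fold change of 0.95 (SE 0.536, edgeR adjusted p = 0.232). In both genes the Foxn3KO counts are higher in each library, and no difference was detectable at this depth.

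No role was assigned to 7 members, of which 5 rose. Cfap299 had 18 and 18 counts against 476 and 347, a log2 fold change of 4.51 (SE 0.173, edgeR adjusted p = 1.01e-12). Cfap99 had 7 and 1 counts against 49 and 39, and its log2 fold change of 3.43 (edgeR adjusted p = 8.11e-05) became 5.37 without wild-type replicate 1 and 2.58 without replicate 2. Against the single count of wild-type replicate 2 the fold was 46.4, with a 95% counting interval of 8.12 to 1850. DESeq2 gave Cfap99 no adjusted p. Cfap119, Cfap97d2 and Cfap96 rose by 1.77, 1.38 and 0.67 on the log2 scale.

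Cfap97 had 51.8 and 48.1 CPM in the wild-type-labelled pair and 49.0 and 45.3 CPM in the Foxn3KO-labelled pair, a log2 fold change of -0.08 (SE 0.0634, edgeR adjusted p = 0.403). It is the member whose groups overlap. Cfap20dc had 14.1 and 14.1 CPM against 17.6 and 15.7 CPM, a log2 fold change of 0.24 (SE 0.0956, edgeR adjusted p = 0.0841). These were among the 12 members with the highest wild-type FPKM.

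The Foxn3KO-labelled libraries gave nearly the same level for most members. Their CPM values differed most for Cfap157 and Cfap100, by 1.85-fold and 1.81-fold, and by at most 1.22-fold for the others. Wild-type libraries differed most for genes with few counts, such as Cfap52, Cfap99 and Cfap65.

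Known partners of these proteins were taken from lists drawn up with earlier results of these data in view. Of 10 listed central apparatus partners 7 were analysed, and these 7 rose, from 0.51 for Spef1 to 5.27 for Spef2, with Hydin at 3.81. Spag17, Iqub and Ccdc180 were not analysed. Of 14 listed radial spoke partners 9 were analysed, and these 9 rose, from 0.44 for Rsph3a to 3.36 for Nme5. Rsph4a, Rsph6a, Rsph14, Dnajb13 and Iqca1 were not analysed. Of 10 listed inner arm heavy chains 6 were analysed. Of these, 5 rose, up to 7.32 for Dnah10, while Dnah1 had a log2 fold change of 0.01 (edgeR adjusted p = 0.978). Dnah3, Dnah6, Dnah12 and Dnah14 were not analysed. Reads of Dnah7a, Dnah7b and Dnah7c may be divided among near-identical copies.

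All 10 genes analysed from the nexin-dynein regulatory complex and axonemal ruler rose, from 0.72 for Gas8 to 5.79 for Tcte1. Drc7 was not analysed. Of 21 listed microtubule inner partners 18 were analysed. Among these 16 rose, up to 4.77 for Pierce1, and Ribc1 (-0.06) and Tekt5 (-0.05) did not pass. Tekt3, Tekt4 and Tektl1 were not analysed. Of 11 dynein assembly partners analysed 10 rose, up to 4.33 for Zmynd10. Daw1 and Dnaaf6 were not analysed. A gene silent in every library could not enter these counts. The medians over the genes analysed from these 6 lists lay between 1.26 and 2.86, beside 2.31 for the Cfap genes. These values are set against 12.3% called higher over all tested genes.

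Of 13 listed regulators of motile ciliogenesis 10 were tested, and 7 of these rose, where 12.3% of all tested genes were called higher. Foxj1 had 191 and 226 counts in the wild-type-labelled pair and 5154 and 3914 in the Foxn3KO-labelled pair, a log2 fold change of 4.45. Rfx2, Rfx1 and Rfx3 rose by 1.41, 0.46 and 0.40 on the log2 scale. Ccno, a cyclin-like factor of centriole amplification in multiciliated cells, rose by 3.14, and Deup1, a scaffold of deuterosomes, by 1.73 from 12 and 10 counts. Ankrd66 had 1 and 5 counts against 12 and 16, a log2 fold change of 2.19 (edgeR adjusted p = 0.0361). Trp73 (-0.28, edgeR adjusted p = 0.628), Myb (-0.03, edgeR adjusted p = 0.602) and Foxn4 (-0.02, edgeR adjusted p = 0.776) did not pass. Cdc20b, with 9 and 7 counts against 7 and 7, was removed by the low-count filter. Mcidas and Gmnc were not analysed here.

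Promoters are shown because most members were called higher. Shared regulation of the members was not tested. RefSeq windows from 250 bases before to 50 bases after the start (GRCm38.p6) were matched for 35 of the 42 genes. The submitters' processing notes name the later build mm39, so no other coordinates are given. The letters GTTGCC, which form one arm of the palindrome that RFX factors are known to bind, were searched on both strands. They occurred in 14 of 35 members, in 15.0% of 12018 tested genes with a window and in 14.1% of all 27025 genes with a window. By class this was 3 of 10 silent, 1 of 1 straddling and 10 of 24 expressed members, so the letters are found in each class. A GTTGCC arm facing its reverse complement GGCAAC with 0 to 3 bases between them, a form chosen after the windows had been seen, stood in Cfap298, Cfap90 and Cfap20dc. That is 8.6% of members, 0.3% of tested genes and 0.2% of all genes. These are shown with the paired arms in capitals, reading with the gene, for Cfap298 at chr16:90934879-90934943 and chr16:90934999-90935062 (minus strand), Cfap90 at chr13:68597393-68597438 (plus strand) and Cfap20dc at chr14:8666354-8666417 (minus strand).
Cfap298, near site: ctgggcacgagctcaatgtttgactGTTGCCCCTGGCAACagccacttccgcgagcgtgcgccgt
Cfap298, far site: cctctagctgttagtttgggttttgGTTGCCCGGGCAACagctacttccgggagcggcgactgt
Cfap90: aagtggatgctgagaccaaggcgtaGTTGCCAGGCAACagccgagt
Cfap20dc: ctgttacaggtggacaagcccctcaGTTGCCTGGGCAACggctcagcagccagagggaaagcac
The near site of Cfap298 begins 69 bases and its far site 188 bases before the start, the site of Cfap90 begins 21 and that of Cfap20dc 102 bases before it. Cfap298 and Cfap90 rose by 1.59 and 2.40 on the log2 scale, and Cfap20dc did not pass (0.24). A looser X-box form of RFX factors, with a fixed gap longer than 3 bases between its arms, was also searched. It occurred in 1 member, Cfap74, where the match includes GTTGCC, and in 3.8% of tested genes and 2.8% of all genes. Sites with 0 to 3 bases between the arms, such as those shown above, could not be counted by it. These shares therefore do not cover all X-boxes.

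GTTGCC matches without an exact facing arm are shown for the silent gene with the largest fold in this set, Cfap44. They are also shown for the expressed genes Cfap144 and Cfap46, with the match or its reverse complement in capitals. They lie at chr16:44394755-44394798 (Cfap44, plus strand), chr11:58801997-58802052 (Cfap144, minus strand) and chr7:139683816-139683849 (Cfap46, minus strand).
Cfap44: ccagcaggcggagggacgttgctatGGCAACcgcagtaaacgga
Cfap144: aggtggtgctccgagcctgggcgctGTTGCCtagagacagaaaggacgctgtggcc
Cfap46: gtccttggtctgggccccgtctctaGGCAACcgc
These sites begin 19, 67 and 9 bases before the start, and Cfap144 holds another GTTGCC that begins 16 bases before it. Facing arms with other letters were not searched at short gaps, so these sites may hold one. Close to the capitals stand the letters gttgct in Cfap44 and agagac in Cfap144. The forkhead letters TGTTTAC occurred in 2 of 35 members, Cfap43 and Cfap20, and in 3.0% of tested genes and 4.1% of all genes. The letters GACGC, a second motif known for FOXN factors, occurred in 22 of 35 members (62.9%), in 49.3% of tested genes and in 29.6% of all genes. GACGC holds a CG pair, and windows differ in base composition, with a median of 58.0% G and C in members, 62.0% in tested genes and 53.3% in all genes. A match is a description of letters only. No window was matched for Cfap53, Cfap54, Cfap65, Cfap97, Cfap157, Cfap299 and Cfap418.

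The members are spread over 17 chromosomes, with at most 4 on any of them. In the GENCODE M21 annotation, 14 members share exon bases with a gene on the other strand, among them Cfap65, Cfap52 and Cfap91. Cfap43 and Cfap299 share exon bases with a gene on the same strand. The library kit keeps strand, but whether the counting used it was not given in the sources used here, so reads of overlapping genes may be mixed.

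Markers of other tissues were summed beside these results. None of the 9 airway and nasal markers was among the genes analysed, and of 8 germ cell markers only Ddx4 was, at 1.09 to 2.32 CPM. Choroid plexus markers went both ways: Folr1 and Aqp1 rose by 1.94 and 1.22 on the log2 scale, and Ttr and Clic6 fell by 0.83 and 1.53 on the log2 scale. Their sum over 8 of 9 markers was 463 to 476 CPM in all 4 libraries, most of it from Otx2, which the retina expresses. Kl, a defining choroid plexus gene, had 4 to 8 counts per library.

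The ependymal list held Fam183b, the earlier symbol of Cfap144, which is a member here. Its other markers among the genes analysed, Nnat, Cd24a and S100b, did not pass, with log2 fold changes of 0.02, 0.09 and -0.33. Their sum was 1690 to 1750 CPM in all libraries, nearly all of it from Nnat and Cd24a, while S100b had 1.27 to 2.06 CPM. The listed markers Tmem212, Mia, Rarres2 and Ccdc153 were not among the genes analysed, so the sum says little about ependyma. Lens markers moved with the genotype: all 7 analysed rose, and their sum was 4.72 and 57.9 CPM in the wild-type-labelled pair and 241 and 239 CPM in the Foxn3KO-labelled pair. Of 7 pigment epithelium markers analysed, 3 fell and none rose, with sums of 85.7 and 113 CPM against 70.2 and 71.3 CPM. The part of lens or pigment epithelium tissue in the rise of the Cfap genes was not tested.

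In the authors' deposited table, 40 members had an adjusted p, and 37 of these were under 0.05 with a higher level in Foxn3KO, where 10.1% of all genes with a value were. In that table the members with a value that did not pass were Cfap97 (adjusted p = 0.663), Cfap20dc (0.289) and Cfap68 (0.0553), and Cfap58 and Cfap157 had none. The authors' deposited table gives log2 fold changes such as 4.65 for Cfap43 and 0.14 for Cfap157.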

How the data were processed

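RNA was measured in 4 retinal libraries of single embryos, 2 per genotype, grouped by their labels. The table holds read counts per gene, which the authors deposited without normalization, and FPKM values of the authors, used here for levels per gene length. Its mean signal per gene, log2 fold changes and p-values were computed by the authors. DESeq2 and the build mm39 are named in the submitters' processing notes. Aligner, counter, annotation and use of molecular identifiers were not given in the sources used here. The smallest sum of counts over the 4 libraries was 16, and genes below it were not analysed here.

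A repeated identifier was dropped, and filterByExpr kept 17300 of 18471 genes. Counts were scaled by TMM and compared between genotypes by the two-sided quasi-likelihood F test of edgeR 4.0.16 (R 4.3.3), with no covariate; p-values were adjusted by Benjamini-Hochberg across the tested genes. Standard errors come from the fold change and F. Alternatives used DESeq2 1.42.0, limma 3.58.1 and the settings in the closing section. Tested on simulated data with 17055 genes for this comparison, it called 100% of 200 genes changed by 2 on the log2 scale and made 9 false calls. The changed genes were drawn from those with a mean level over 1 CPM, and the same dispersion was assumed for all genes. Recovery of genes silent in wild-type was therefore not tested. Recovery of smaller changes was not tested either. Totals of 22543531 to 29360129 put the limit of 3 counts at 0.103 to 0.134 CPM. Intervals and limits cover counting error only. Setting the class by 1 wild-type library, and the paired motif, were chosen after seeing the data. The numbers of the replicates do not pair the embryos. The members, the roles, the partner and marker lists were chosen with earlier results of these data known. Named with values in each library were the 3 genes Cfap65, Cfap44 and Cfap52, members that did not pass, the extremes of each role and the 3 highest per length. Role symbols Cfap73, Cfap107, Cfap141, Cfap161, Cfap184, Cfap263 and Cfap337 were not analysed here.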

Additional observations from a re-analysis of the deposited data

How the results depend on the processing

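The count of 38 members called, all higher, was 36 in DESeq2, 29 of 31 tested with at least 10 counts in every library, 40 at an adjusted p under 0.1, 30 with a minimum of 2-fold, and 38 with RLE factors, scaling to totals, all genes kept, limma-voom and the earlier edgeR fit. It was 37 to 38 without any 1 library; there the lone library of a group is assumed to vary like the other group. No called member changed sign in any setting. With at least 10 counts in every library, 3 of the 12 silent members were called, since only 3 could be tested, and the median log2 fold change was 1.78, which that filter lowers by removing silent genes. With a silence limit of 0.1 FPKM, 4 members were silent and 4 called; the limit then depends on gene length. Leaving out each library in turn gave 12 to 13 silent and 23 to 24 expressed members called and medians of 2.24 to 2.30. Replicate numbers give no pairing of embryos (correlation of replicate differences 0.00526 over 17300 genes), and with the replicate block 38 members were called. For single members, 527 values kept their direction and side of the threshold, 4 lost the call and 1 gained it. These values include the fit with a prior count of 2, which changes the fold but leaves the adjusted p as it was. Values without an adjusted p, such as Cfap99 in DESeq2, are not among them. Depth limits the folds of genes with under 10 counts in wild-type.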
